A study of Coturnix japonica with 24 samples.

Results

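Genes of the proteasome, the protease complex that degrades most short-lived and damaged proteins of a cell, were followed over the day in the mediobasal hypothalamus of Japanese quail under short and long days. A gene was included where its single symbol in the array's annotation began with PSM followed by a letter from A to G and a digit, which gave 37 of 13009 genes with such a symbol. Where several probe sets carried a symbol, the brightest on average was taken. Of the 37, 36 passed the filter on dim probe sets: 13 subunits of the 20S core, 13 of the 19S regulatory particle, 7 assembly chaperones, 2 activators and PSMF1. The 1 gene left out was PSMC3IP, which encodes a recombination factor and no subunit, and which exceeded background on 3 of 24 arrays. All 37 symbols occur in the quail gene table, which holds 40 of this pattern. The other 3 were PSMD11 and PSME3IP1, not analysed here, and PSMD4, whose probe sets also name another gene.

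Proteins marked with ubiquitin chains are bound and unfolded by the 19S particle, whose ring of ATPases threads them into the barrel of the 20S core. The core is built of outer alpha rings, which gate the entrance, and inner beta rings, which hold the cutting sites. In neurons this route removes clock repressors such as the PER and CRY proteins as well as synaptic proteins, and in mammals the transcription factor NFE2L1 raises many subunit genes together when proteasome activity falls. The roles given below are known from human and yeast.

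Both photoperiods were studied in male quail aged 8 weeks that had lived under short days for 4 weeks. The birds then stayed for 2 weeks under short days (6L:18D, light and dark in hours) or spent them under long days (20L:4D). At each of 6 zeitgeber times (ZT, read here as hours after lights on), 4 h apart, tissue came from 6 birds. RNA of 3 birds was pooled on each array, so that each of the 12 groups had 2 arrays, called biological replicates in the labels. Pooling hides the spread between single birds, and in bulk tissue fewer cells of a type and less RNA per cell cannot be told apart.

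The arrays carried chicken probes and their number limits the precision of every value. Median intensities of the arrays ran from 10.9 to 21.1, and every array was therefore centred on its median. Background, the 95th percentile of 746 probe sets with no chicken name, lay between 15.4 and 21.5 after centring. Of known photoperiod genes above background on all 24 arrays, DIO3 changed by -4.22 ± 0.17 and CGA by 1.85 ± 0.12 on the log2 scale (long minus short days, moderated standard error, SE). Of 10 neuron markers 9 exceeded background on all 24 arrays, as did 4 of 7 hypothalamic peptide genes, 4 of 7 astrocyte and tanycyte genes, 4 of 6 microglia genes and 2 of 4 oligodendrocyte genes. The array of long days at ZT14 with replicate number 2 lay at the end of the range in 2 measures. It is called the array that stood apart below. Its Spearman correlations with the rest had the lowest median (0.724), with 0.740 as the next lowest of the arrays. It also had the highest ACTB control ratio, the 3' over the 5' probe set in log2 (2.21). The next highest ratio was 2.01, and the median over the arrays was 1.76. This ratio was shifted upward in long days, with 1.49 to 2.00 on short-day arrays and 1.60 to 2.21 on long-day arrays. At ZT14 it was 1.63 and 1.61 in short days and 1.83 and 2.21 in long days. The part of RNA quality in the photoperiod changes was not tested. Arrays with replicate numbers 1 and 2 are called array sets 1 and 2 below. They differed in brightness: the array of set 1 had the higher median intensity and more probe sets above background in 12 of 12 groups, with medians of 16.7 to 21.1 in set 1 and 10.9 to 14.1 in set 2. Each set holds 1 array of every group.

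The central comparison set long against short days over all 6 times. None of the 36 tested proteasome genes passed the photoperiod test (limma, adjusted p under 0.05), where 0.139% of the 28829 probe sets did. At an unadjusted p under 0.05 there were also 0 of 36, against 5.62% of all probe sets, and none had short-day and long-day arrays that did not overlap (0.0659% of all). In long days 16 genes lay higher and 20 lower, where 49.1% of all probe sets lay higher, with changes from -0.24 (PSMD5) to 0.21 (PSMC3) on the log2(intensity + 1.497) scale. Their median was -0.0026, beside -0.0057 over all probe sets tested, and no gene exceeded 0.25 in size, which 39.2% of all probe sets and 15.5% of those above background on all 24 arrays did. This count depended on the processing: from 0 to 5 genes exceeded 0.25 under the alternatives. As the mean of all their probe sets, PSMA5 was at 0.49 and PSMG4 at 0.35. The other probe set of PSMA5 exceeded background on 4 of 24 arrays.

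The intervals around these changes were narrow for most members. The 95% interval stayed within a 1.5-fold change in either direction for 30 of 36 genes, against 24.5% of all probe sets, and within 2-fold for 35, against 64.3%. It stayed within 1.25-fold for 12 genes (PSMA1, PSMA3, PSMA6, PSMA7, PSMB4, PSMB7, PSMC1, PSMD1, PSMD7, PSMD12, PSMD13 and PSME4), against 3.60%. These intervals hold for the 1 probe set used per gene. For PSMB7 another probe set above background on all 24 arrays was at 0.13 ± 0.16. For PSME4 such probe sets were at -0.080 ± 0.17 and -0.40 ± 0.20. Above background on all 24 arrays were 31 of the 36 genes and 26.5% of the probe sets tested. Among such probe sets, 76.4% had intervals within 1.5-fold, and 30 of the 31 proteasome genes did. Within 2-fold the share was 98.8%, beside 31 of 31, and within 1.25-fold it was 13.6%, beside 12 of 31. The 6 genes with intervals wider than 1.5-fold were PSMA5, PSMB5, PSMC6, PSMD10 and PSMG3, which missed background on 1 or more arrays, and PSMC3.

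**Figure D1:**
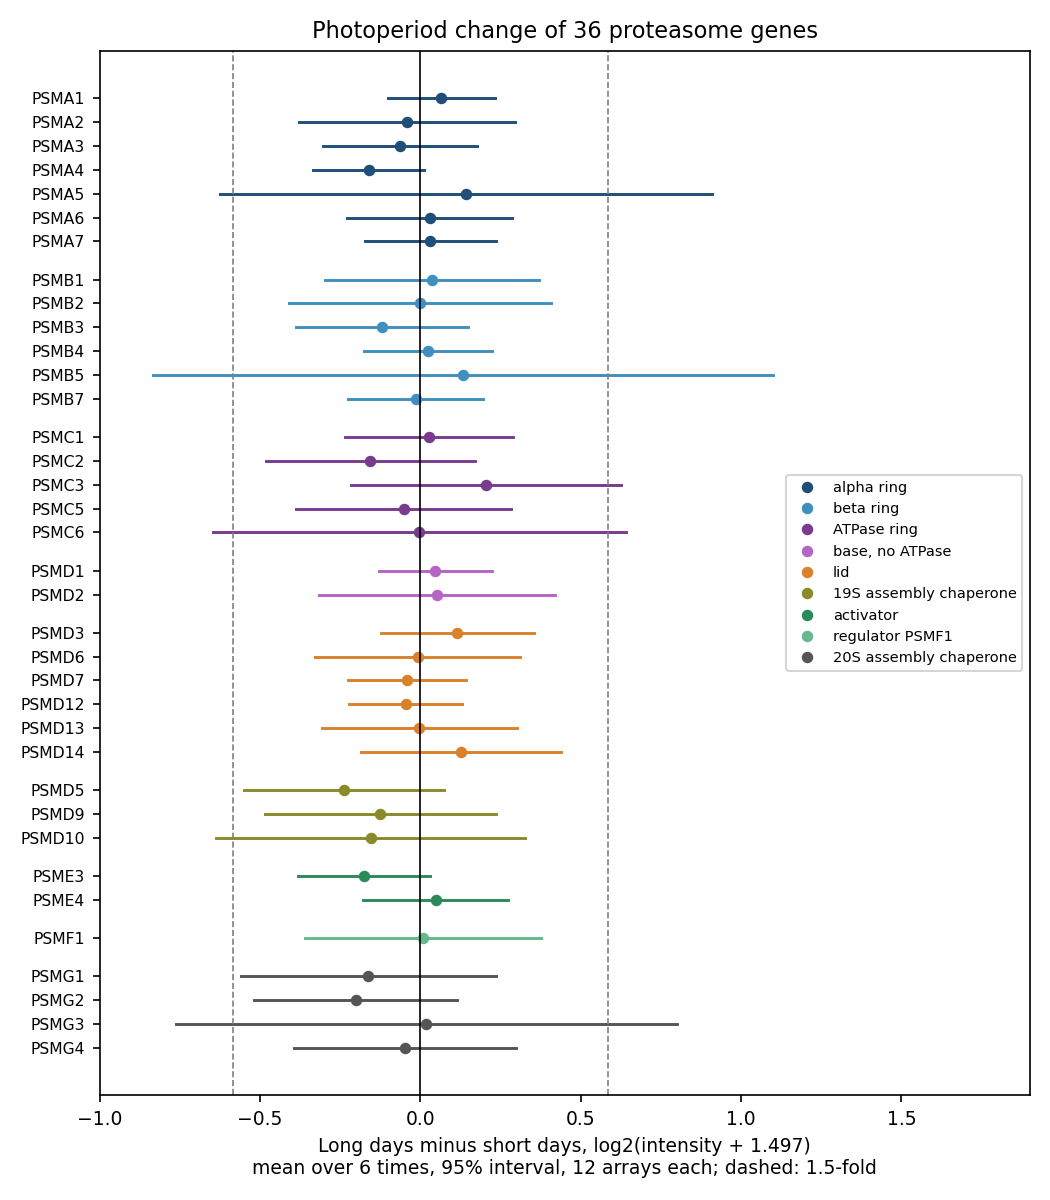
Photoperiod change of the 36 tested genes on the horizontal axis (long days minus short days, log2 scale, mean over 6 times, 12 arrays per photoperiod), coloured by subunit group. Points are the estimates and lines the 95% intervals. All points lie between -0.24 and 0.21, every interval includes 0, and 30 of 36 lie between the dashed lines that mark 1.5-fold.

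In the alpha ring 4 genes lay higher and 3 lower, with a median of 0.029. PSMA1 ranged from 856 to 1089 (median 1045) on the 12 short-day arrays and from 941 to 1188 (median 1101) on the 12 long-day arrays. The ranges overlapped over most of their length, and the difference of 0.065 ± 0.080 had an interval from -0.10 to 0.23. PSMA4 ranged from 1638 to 2041 (median 1885) in short days and from 1319 to 2105 (median 1678) in long days. Its long-day arrays spread more widely on both sides, and its mean was lower in long days at 6 of 6 times, by -0.16 ± 0.083 overall (adjusted p = 0.90). A shared direction at all 6 times was found for 2 of 36 members, PSMA4 and PSMG2, and for 4.25% of all probe sets. PSMA5 was dim, above background on 20 of 24 arrays, and its change of 0.14 ± 0.37 left an interval from -0.62 to 0.91. PSMA2, PSMA3, PSMA6 and PSMA7 differed by -0.042, -0.063, 0.029 and 0.032.

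The beta ring holds the catalytic subunits, of which PSMB5 carries the chymotrypsin-like site and PSMB7 the trypsin-like site. PSMB6, which carries the caspase-like site, was not analysed here. PSMB7 ranged from 514 to 912 (median 627) in short days and from 466 to 903 (median 645) in long days. The ranges nearly coincided, with a change of -0.015 ± 0.10 and an interval from -0.23 to 0.20. PSMB5 could hardly be measured: it exceeded background on 5 of 24 arrays, with 0.738 to 22.7 in short days and 1.27 to 24.9 in long days, and its interval ran from -0.84 to 1.10. Among the structural beta subunits PSMB4 was measured most tightly, at 676 to 1272 (median 974) in short days and 820 to 1154 (median 984) in long days. It differed by 0.025 ± 0.096. PSMB1, PSMB2 and PSMB3 differed by 0.036, -0.00049 and -0.12, and the 6 beta genes had a median of 0.012.

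The ATPase ring of the 19S particle opens the gate and unfolds substrates. Of its 5 measured genes 2 lay higher and 3 lower, with a median of -0.0025. PSMC3 showed the highest change of all members, 0.21 ± 0.20, from 34.9 to 86.4 (median 58.6) in short days to 34.99 to 102 (median 65.8) in long days. The groups overlapped almost completely, and a second probe set of PSMC3, above background on all 24 arrays, was at -0.30. PSMC1 had 125 to 225 (median 190) in short days and 128 to 227 (median 195) in long days, a difference of 0.027 ± 0.13. PSMC2 and PSMC5 were at -0.16 ± 0.16 and -0.052 ± 0.16. PSMC6 exceeded background on 15 of 24 arrays and was at -0.0025 ± 0.31.

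The base also holds PSMD1 and PSMD2, large scaffold proteins on which ubiquitin receptors and substrates dock. PSMD1 ranged from 843 to 1112 (median 978) in short days and from 889 to 1162 (median 1012) in long days, and PSMD2 from 54.8 to 165 and from 82.3 to 170. The differences were 0.047 ± 0.085 and 0.053 ± 0.18.

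In the lid, which removes ubiquitin chains, 2 genes lay higher and 4 lower with a median of -0.0052. PSMD14, the deubiquitinase of the lid, was at 308 to 928 (median 638) in short days and 452 to 870 (median 681) in long days. Its change of 0.13 ± 0.15 was composed of -0.26 within array set 1 and 0.51 within array set 2, which point in opposite directions. PSMD7, the inactive partner with which PSMD14 pairs, ranged from 868 to 1150 (median 919) and from 832 to 1145 (median 910), a difference of -0.042 ± 0.089. The scaffold subunit PSMD12 ranged from 843 to 1049 and from 745 to 1073, and differed by -0.045 ± 0.085. PSMD3, PSMD6 and PSMD13, also scaffold subunits, were at 0.12, -0.0076 and -0.0028.

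Assembly chaperones build the particles and leave the finished complex. On the probe sets used, 6 of 7 such genes lay lower in long days, where 50.9% of all probe sets did. The median of the 7 was -0.15, and none passed the test. The lowest changes of all members were those of the chaperones PSMD5 and PSMG2, followed by PSME3. PSMD5, a chaperone of the ATPase ring, ranged from 70.8 to 187 (median 155) in short days and from 76.2 to 170 (median 121) in long days. Its change of -0.24 ± 0.15 had an adjusted p of 0.94 and an interval from -0.55 to 0.074, and a second probe set of PSMD5 was at -0.091. The other ATPase chaperones PSMD9 and PSMD10 were at -0.12 ± 0.17 and -0.15 ± 0.23. PSMG2, which pairs with PSMG1 to start the alpha ring, ranged from 61.2 to 110 (median 82.6) in short days and from 55.3 to 107 (median 73.2) in long days. It was lower at 6 of 6 times, by -0.20 ± 0.15 (adjusted p = 0.96). PSMG1 was at -0.16 ± 0.19, and the other alpha ring chaperones PSMG3 and PSMG4 were at 0.019 ± 0.38 and -0.047 ± 0.17.

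Alternative caps of the core were measured as well. PSME3, a nuclear activator that opens the gate without ATP, ranged from 430 to 755 (median 595) in short days and from 434 to 661 (median 514) in long days. The highest values were short-day ones, and the change was -0.18 ± 0.099 (adjusted p = 0.93, interval from -0.38 to 0.029). A second probe set of PSME3, above background on all 24 arrays, was at 0.053. PSME4, a large activator linked to histone degradation, ranged from 140 to 211 (median 196) and from 180 to 211 (median 194), a difference of 0.048 ± 0.11. Other probe sets of PSME4, also above background on all 24 arrays, were at -0.080 ± 0.17 and -0.40 ± 0.20. PSMF1, which inhibits the isolated core, was at 0.0084 ± 0.18.

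The array sets gave the directions differently. Within array set 1 the median change of the 36 genes was -0.14, with 25 lower, and within array set 2 it was 0.043, with 14 lower. All probe sets moved the same way between the sets, with medians of -0.057 and 0.041 and 57.0% and 46.0% lower. In the 20S core 10 of 13 genes were lower in set 1 and 3 of 13 in set 2, and in the 19S particle 7 and 3 of 13. Among the assembly chaperones 6 of 7 were lower in each set, but these were not the same 6 genes. PSMD10 was at 0.28 in set 1 and -0.59 in set 2, and PSMG3 was at -0.42 and 0.45. The sign was the same in both sets for 17 of 36 genes and for 51.1% of all probe sets.

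The second comparison took each time on its own, with 2 arrays against 2. No proteasome gene passed at any time, where 0.00694% of all probe sets did at ZT2 and 0.0139% did so 4 h later. The share was 0.0173% for ZT10 as for ZT18, 0.0312% for ZT14 and 0.0139% for ZT22. At an unadjusted p under 0.05 stood PSME3 at ZT2, PSMG3 at ZT6 and PSMA6 and PSMC2 at ZT14, which is 1, 1 and 2 of 36 genes against 4.16%, 4.29% and 5.56% of all probe sets. At ZT10, ZT18 and ZT22 there were 0 of 36, against 4.71%, 4.16% and 4.62%.

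At ZT14 the median change of the 36 genes was -0.13, with 11 higher, and that of all probe sets was -0.044, with 47.0% higher. Among those above background on all 24 arrays the median was -0.070 with 42.2% higher, beside -0.12 and 10 of 31 for such proteasome genes. PSMA6, an alpha subunit, stood at 892.2 and 891.9 on the short-day arrays of ZT14 and at 567 and 414 on the long-day arrays. Both short-day values were the highest of the 24 arrays. The difference was -0.88 ± 0.30, with an interval from -1.51 to -0.25 and an adjusted p of 0.82. PSMC2, an ATPase, had 719 and 523 in short days and 481 and 156 in long days at ZT14, a difference of -1.16 ± 0.39 (adjusted p = 0.80). The value of 156 was the lowest of the 24 arrays and came from the long-day array of set 2 that stood apart, with an ACTB ratio of 2.21; the part of RNA quality in this value was not tested. Without that array the difference of PSMC2 was -0.35 ± 0.37. Without the other long-day array of ZT14 it was -1.96 ± 0.37 (adjusted p = 0.0057), the 1 case among the alternatives run in which a member passed, in a setting in which 406 of all probe sets passed. There the long-day group is 1 array, the one that stood apart, and it is assumed to vary as the arrays of the other groups do. For PSMA6 the differences without these arrays were -0.65 ± 0.36 and -1.11 ± 0.36. The lowest change at ZT14 was that of PSMC6 (-1.44 ± 0.76), which stood at 7.13 and 4.98, under background, on the long-day arrays, and the highest was that of the beta subunit PSMB2 (0.37 ± 0.48).

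At ZT22, when both photoperiods were dark, the median of the members was 0.17, with 26 of 36 higher in long days, beside a median of 0.067 for all probe sets, 54.7% of which were higher. Among probe sets above background on all 24 arrays the median was 0.13 and 65.8% were higher, beside 0.14 and 21 of 31 for the proteasome genes of that class. The 20S and 19S genes had medians of 0.27 and 0.21. The lid gene PSMD3 was at 0.56 ± 0.28 there. The highest and lowest changes at ZT22 were those of PSMB5 (1.04 ± 1.14, under background on most arrays) and PSMD5 (-0.38 ± 0.37). The count of 26 is no test, as the genes share the same 4 arrays.

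At ZT2 PSME3 stood at 755 and 645 in short days and at 513.5 and 434 in long days. The difference, long minus short days, was -0.56 ± 0.24 (adjusted p = 0.9996). The extremes of that time were PSMB1 (0.75 ± 0.39) and PSMD9 (-0.58 ± 0.43). At ZT6 and ZT10 the extremes were dim genes, PSMG3 (2.04 ± 0.92 and -1.07 ± 0.92), and PSMA5 (-1.47 ± 0.91 and 1.03 ± 0.91), each turning its sign between the neighbouring times. The short-day arrays of PSMG3 at ZT6 (13.4 and 1.95) both lay under background, and without either of them the change was 0.99 or 3.10, so its size has little meaning. At ZT18 they were PSMC2 (0.22 ± 0.39) and PSMG1 (-0.82 ± 0.47). The median of the 36 genes was -0.059 at ZT2, -0.0045 and -0.0013 at the following times and 0.017 at ZT18.

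**Figure D2:**
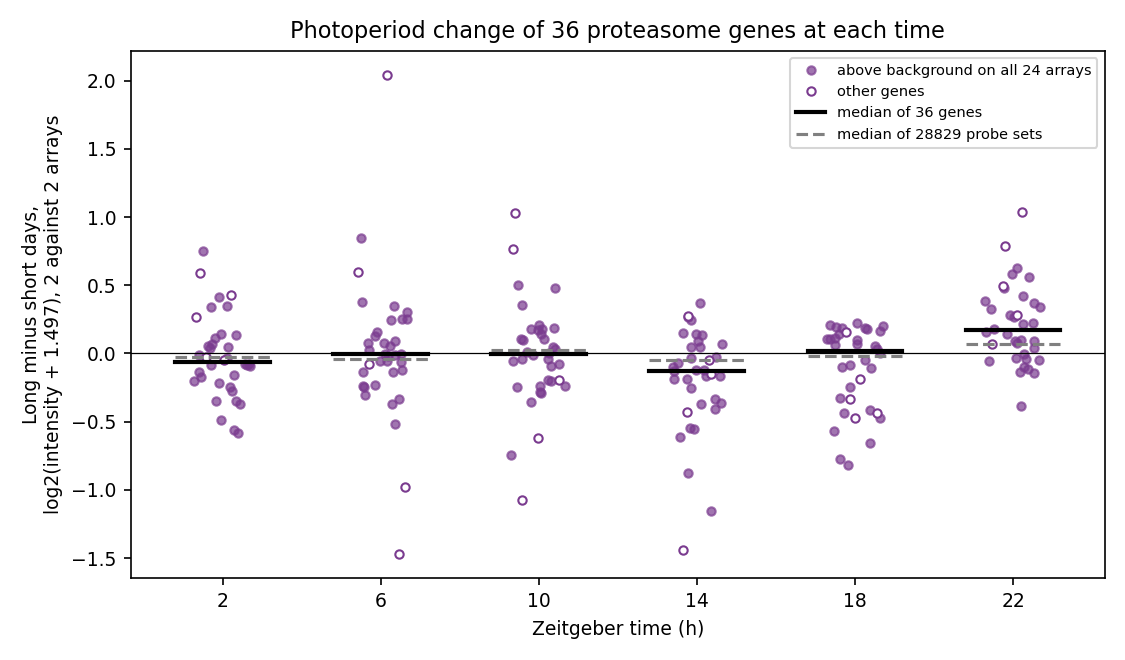
Photoperiod change of each of the 36 genes (points, log2 scale, 2 against 2 arrays) at the 6 zeitgeber times in hours; filled points are the 31 genes above background on all 24 arrays and open points the others. Solid bars are the medians of the members, from -0.13 at ZT14 to 0.17 at ZT22, and dashed bars the medians of all probe sets tested, from -0.044 to 0.067.

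The third comparison asked whether the genes varied over the day within a photoperiod. No proteasome gene passed the F test of time in short days (0.0208% of all probe sets) or in long days (0%). None passed the test of a 24 h cosine in short days (0.0277%) or in long days (0%). As hardly any probe set passed these tests, the count of 0 members does not show that the genes lack a daily course. At an unadjusted p under 0.05 there were 0 genes in the F test of short days (3.79% of all probe sets), 1 in that of long days (3.51%), and 0 with a cosine in either photoperiod (4.75% and 4.13%). The median log2 amplitude of the fitted cosines was 0.16 in short days and 0.14 in long days, beside 0.32 and 0.31 over all probe sets. Among genes above background on all 24 arrays the medians were 0.12 and 0.13, beside 0.17 and 0.16 for all such probe sets. Amplitudes under 0.25 were found for 30 of 36 genes in short days and 26 of 36 in long days, against 37.6% and 39.6% of all probe sets.

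Some of the flattest profiles belonged to PSME4, with amplitudes of 0.019 ± 0.098 in short days and 0.013 ± 0.098 in long days, and to PSMD13 (0.049 ± 0.13 and 0.054 ± 0.13). PSMD1 had 0.16 ± 0.077 and 0.048 ± 0.077, PSMA1 0.068 ± 0.072 in both, and PSMB4 0.047 ± 0.091 and 0.14 ± 0.091. PSMB7 stood highest at ZT10 in short days and at ZT14 in long days, with amplitudes of 0.17 ± 0.10 and 0.19 ± 0.10.

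The smallest unadjusted p-values in short days were those of PSMG3 (0.11), PSMA3 (0.12) and PSMA6 (0.13) in the F test, and of PSMA6 (0.069), PSME3 (0.085) and PSMB2 (0.12) for the cosine. PSMA3, an alpha subunit, stood at 374 and 380 at ZT22 in short days, under every other short-day array, and at 702 and 574 at ZT2. PSME3 stood at 755 and 645 at ZT2 in short days, 696 and 645 at ZT6, 723 and 546 at ZT10, 607 and 505 at ZT14, 581 and 495 at ZT18 and 583 and 430 at ZT22. These values run downward over the short day from ZT2 to ZT22 in mean, with an amplitude of 0.22 ± 0.093 and a peak at 5.95 h. In long days its means showed no such course, with an amplitude of 0.075 ± 0.093.

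In long days the F test had its smallest unadjusted p-values for PSMC6 (0.045), PSMD6 (0.13) and PSMC2 (0.14), and the cosine for PSMD6 (0.11), PSMC2 (0.11) and PSMB5 (0.14). PSMD6, a lid scaffold, stood at 33.3 and 33.4 at ZT14, the lowest of the 12 long-day arrays, and at 71.7 and 66.1 at ZT22. In short days PSMD6 was also low at ZT14 (50.6 and 37.3) and was highest at ZT6 (77.9 and 75.1). PSMC6, PSMC2 and PSMD6 all had their lowest long-day mean at ZT14, the time that holds the array that stood apart. The set 1 array of that time gave 7.13 for PSMC6, 481 for PSMC2 and 33.3 for PSMD6.

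**Figure D3:**
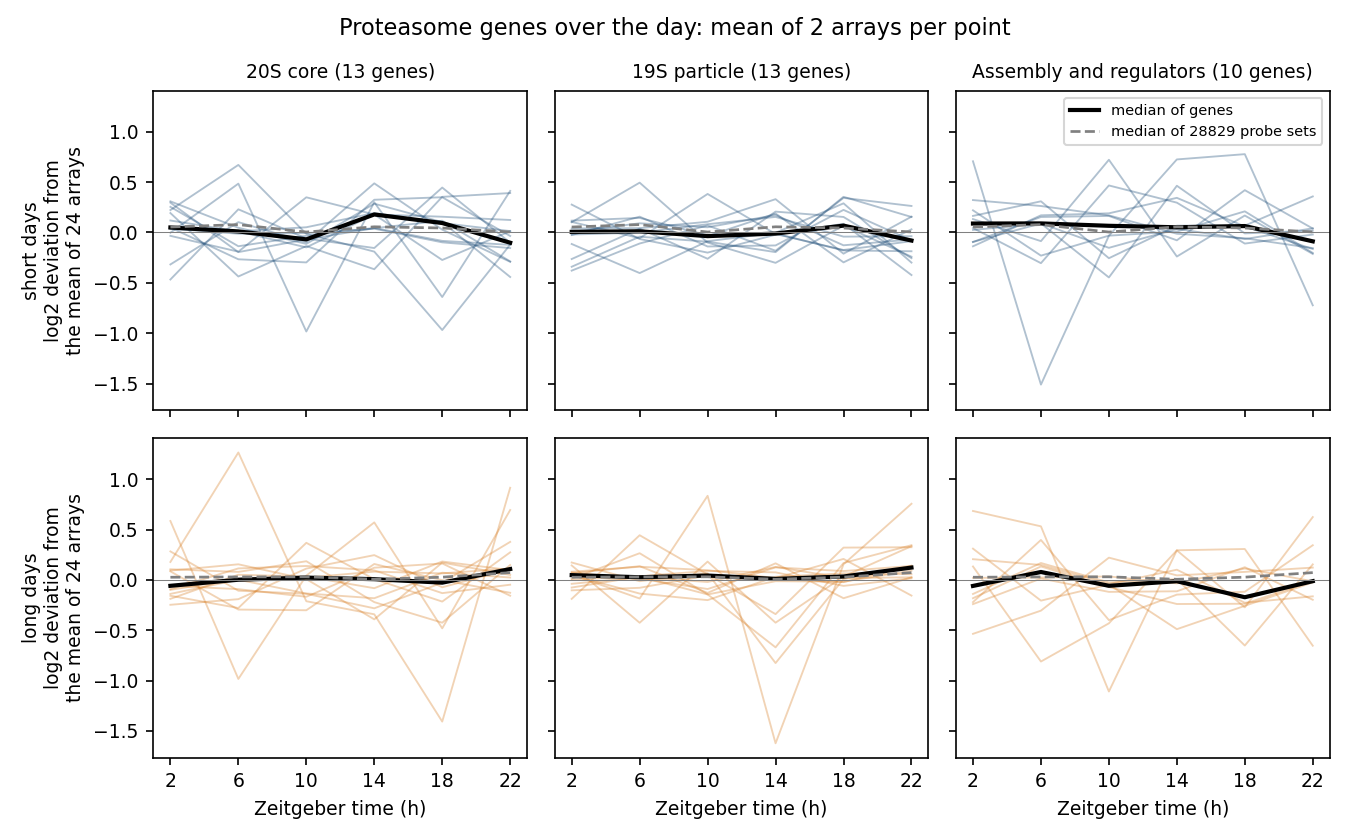
Mean of 2 arrays at each zeitgeber time (hours), as the log2 deviation from the mean of each gene over 24 arrays, for short days (upper row) and long days (lower row) in the 20S core, the 19S particle and the assembly factors with regulators. Thin lines are genes, thick lines their median and dashed lines the median of all probe sets tested; the 20S median runs from 0.18 at ZT14 to -0.10 at ZT22 in short days, and the 19S median reaches 0.12 at ZT22 in long days.

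The last comparison asked whether the daily course differed between the photoperiods. No member passed the interaction test (0.00694% of all probe sets) or the test of a difference between the cosines (0.00694%). At an unadjusted p under 0.05 there were 0 of 36 in the interaction (3.39%) and 1 of 36, PSMA6, in the difference of cosines (4.39%). PSMA6 peaked at 12.99 h in short days with an amplitude of 0.30 ± 0.12 and at 1.61 h in long days with 0.17 ± 0.12. The cosines of PSMA6 differed with an adjusted p of 0.9993 in limma, and it also had the smallest unadjusted p of the interaction (0.072). Its short-day arrays of array set 2 at ZT2 and ZT22 gave 345 and 397 while those of set 1 gave 752 and 679. By unadjusted p, PSMC2 (0.18) and the alpha subunit PSMA2 (0.20) followed in the interaction, and PSMA2 (0.061) and PSME3 (0.14) in the difference of cosines. PSMA2 peaked at 18.0 h with 0.30 ± 0.15 in short days and at 4.67 h with 0.24 ± 0.15 in long days.

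**Figure D4:**
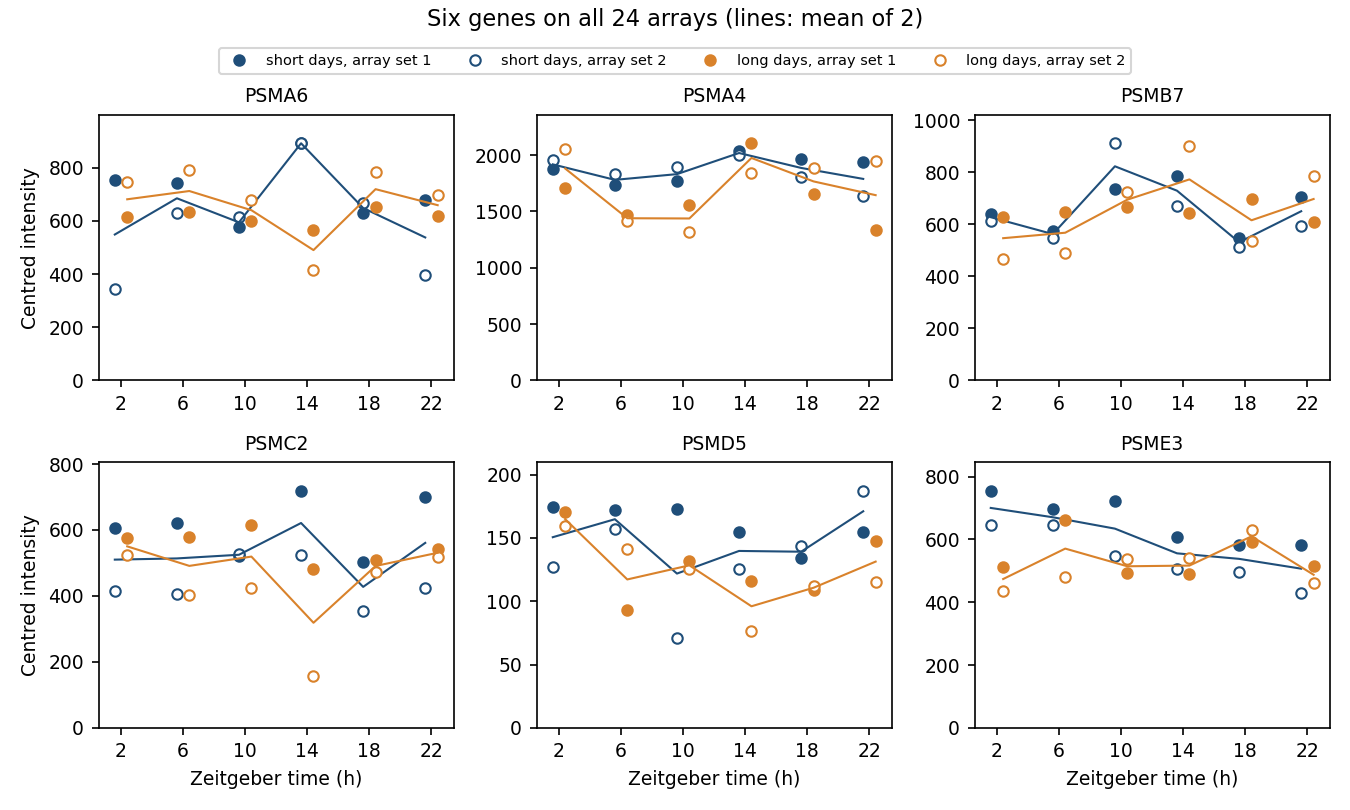
Centred intensity of 6 genes on all 24 arrays against zeitgeber time in hours, with filled points for array set 1, open points for array set 2 and lines through the means of 2 arrays; each axis starts at 0. In PSMA6 the short-day arrays of ZT14 are at 892.2 and 891.9, and in PSMC2 the lowest value (156) is the long-day ZT14 array of set 2.

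Among other genes of the pathway, 0 of 54 genes of 5 lists passed the photoperiod test in either direction, where 0.139% of all probe sets passed. Of 11 partners that bind the proteasome 6 were higher and 5 lower, with a median of 0.026. They included the ubiquitin receptor ADRM1 (-0.039 ± 0.088), the core maturation factor POMP (-0.11 ± 0.29), the deubiquitinases USP14 (0.077 ± 0.27) and UCHL5 (0.15 ± 0.18), the scaffold ECPAS (0.24 ± 0.34) and the ligase UBE3C (-0.11 ± 0.18). Of 10 shuttle factors and genes of the VCP complex 4 were higher and 6 lower, with a median of -0.014. The segregase VCP was at 0.0054 ± 0.18, its cofactor UFD1L at -0.29 ± 0.22, the shuttle UBQLN4 at 0.12 ± 0.12 and the protease DDI2 at -0.63 ± 0.31 (adjusted p = 0.89), above background on 10 of 24 arrays.

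Among 24 ubiquitin-conjugating enzymes 11 were higher and 13 lower (median -0.0091), with UBE2D3 at -0.13 ± 0.094, UBE2O at 0.57 ± 0.41 and UBE2E1 at -0.26 ± 0.21. RPS27A, which encodes a ubiquitin fusion, was at -0.19 ± 0.25 and the activating enzyme UBA6 at 0.14 ± 0.19. Of 7 genes that control proteasome transcription 6 were higher and 1 lower (median 0.18), none past the test. NFE2L1 was at 0.0070 ± 0.11, NGLY1, which processes it, at 0.022 ± 0.17, NFE2L2 at 0.45 ± 0.33 and above background on 19 arrays, MAFF at 0.298 ± 0.17 and MAFK at -0.16 ± 0.11. None of the 54 passed a test of time of day, interaction or cosine.

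Some markers of cell types passed the photoperiod test. POMC was lower in long days (-1.04 ± 0.14), as was FABP7 (-0.95 ± 0.14). CGA and TSHB, from a list of 7 anterior pituitary and pars tuberalis genes, were higher. TSHB exceeded background on 1 short-day array and on 12 long-day arrays. Of that list 4 genes were higher and 3 lower (median 0.061), and 1 exceeded background on all 24 arrays. Its summed intensity ranged from 240 to 1461 in short days and from 1030 to 2920 in long days. Among neuron markers 0 of 10 passed, among oligodendrocyte markers 0 of 2 and among microglia markers 0 of 6. For endothelium it was 0 of 5 and for red blood cells 0 of 4. The summed intensity of the neuron markers ranged from 18744 to 24818 in short days and from 19810 to 27868 in long days. Of these markers 8 of 10 were higher in long days, where 49.1% of all probe sets were. That of the hypothalamic peptide genes ranged from 3647 to 6262 and from 2772 to 4355, with 6 of 7 lower in long days. Astrocyte and tanycyte genes had 5760 to 7916 and 4465 to 6938, with 5 of 7 lower, and microglia genes 511 to 1269 and 486 to 802, with 5 of 6 lower. Oligodendrocyte genes had 5821 to 8166 and 2606 to 7791, with 2 of the 2 tested lower. Endothelium genes (177 to 418 and 154 to 452) and red blood cell genes (55.3 to 300.2 and 99.9 to 288) overlapped over most of their range. Of the endothelium genes 4 of 5 were higher in long days (median 0.32), and of the red blood cell genes 3 of 4 were lower. The part of cell makeup in the proteasome values was not tested.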

How the data were processed

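The authors deposited an intensity for each probe set, on a linear scale, and the submitters' processing notes name GCOS 1.2. How the signals were summarised and scaled is not given in the sources used here. Of 38535 probe sets 96 controls were left out. Array medians differed by up to 1.93 times, so each array was scaled to a common median, and log2(intensity + 1.497) was taken, the pseudocount being 10% of the median intensity of 14.97. On this scale the folds of dim genes come out too small. Probe sets in the lowest 25% by mean were left out, leaving 28829. Symbols are those of the platform annotation, some of them old, and 21 of the 37 members are read on probe sets whose names mark possible matches to several transcripts. No coordinates or sequences are given.

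Limma 3.58.1 (R 4.3.3) fitted 12 group means, or a mean with a 24 h cosine and sine per photoperiod, using lmFit and eBayes (trend on). The Benjamini-Hochberg adjustment covered all probe sets tested (threshold 0.05). The p-values measure the spread between the arrays of a group, which differ both in RNA pool and in array set. The fits were tested on simulated data. Members and lists were chosen with earlier results of these data known. By rule, the text gives values for PSMB5 and PSMB7, the 4 highest and 4 lowest photoperiod changes, the 3 smallest p of each time test, the extremes at each time and up to 3 genes per further list with the smallest p. PSMA1, PSMA4 and other members, and VCP, ADRM1, POMP, USP14, NFE2L1 and NGLY1, were added for their role. The background was defined after the data were seen. Alternatives are given in the closing section.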

Additional observations from a re-analysis of the deposited data

How the results depend on the processing

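No member passed the photoperiod test under any of 35 alternatives (pseudocount, filter, scaling, trend, array weights, replicate block, means over probe sets, each array left out). Differences between arrays 1 and 2 correlated at 0.0076 to 0.087 over 66 pairs of groups, all positive but none over 0.1. The numbers were therefore not taken to pair the samples, although set 1 was brighter in 12 of 12 groups. The limit of 0.1 is a choice, and whether the numbers mark a batch was not tested. The standard errors, intervals and p-values given above come from fits without the replicate block. The spread behind them therefore includes any difference between the array sets. With the replicate block, the count of members past the test was 0 in every comparison. Over all probe sets, 40 passed the photoperiod test, 76 with the replicate block, 74 after quantile normalization, 98 with both (chosen after seeing the data) and 12 with no centring. At ZT14 the members past the test numbered 0 to 1 when an array was left out; the 1 was PSMC2 without the long-day array of ZT14 with replicate number 1.

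The sign of a change was kept by 13 members under all alternatives and turned at least once in 23, in 138 of 1259 values. It turned with a pseudocount of 16 in PSMB2 0.0023, PSMC6 0.054, PSMG3 -0.017, after quantile normalization, with or without the replicate block, in PSMB2 0.0066, PSMB7 0.019, PSMD7 0.0082, PSMD12 0.0072, with no centring in PSMA6 -0.0053, PSMA7 -0.0024, PSMB4 -0.0087, PSMC1 -0.0062, PSMF1 -0.025, PSMG3 -0.031, and with the mean of all probe sets of a gene in PSMB7 0.059, PSMC3 -0.049, PSME4 -0.14, PSMG3 -0.042, PSMG4 0.35. With each array left out, the changes that turned ranged as follows: PSMA2 -0.14 to 0.056, PSMA5 -0.15 to 0.43, PSMA6 -0.065 to 0.12, PSMA7 -0.011 to 0.074, PSMB1 -0.094 to 0.17, PSMB2 -0.098 to 0.097, PSMB4 -0.041 to 0.092, PSMB5 -0.11 to 0.38, PSMB7 -0.056 to 0.026, PSMC1 -0.031 to 0.086, PSMC5 -0.16 to 0.052, PSMC6 -0.17 to 0.17, PSMD2 -0.077 to 0.18, PSMD6 -0.054 to 0.038, PSMD13 -0.070 to 0.065, PSMD14 -0.0054 to 0.26, PSME4 -0.001 to 0.097, PSMF1 -0.074 to 0.091, PSMG3 -0.16 to 0.19, PSMG4 -0.16 to 0.061. Members that kept their sign with each array left out also moved: PSMD5 -0.34 to -0.13, PSMC3 0.12 to 0.29, PSMG2 -0.28 to -0.12, PSMG1 -0.27 to -0.056, PSMC2 -0.29 to -0.021, PSMD10 -0.30 to -0.0063. The median over members was -0.052 to 0.018 with an array left out, and -0.14 in array set 1 alone, an alternative chosen after seeing the data. The causes were not tested. Dim genes (PSMA5, PSMB5, PSMC6, PSMG3) are limited by signal close to background.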

Other observations

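As a description over 24 arrays that share RNA pools and scaling, the mean pairwise Pearson correlation was 0.092 among the 31 genes above background on all arrays and 0.12 among all 7643 such probe sets. Within groups of the same photoperiod and time the values were 0.14 and 0.18. With 2 arrays per group, these 2 values rest on the differences between the arrays of sets 1 and 2. The order depended on the array set: within set 1 the values were 0.11 and 0.0996, and within set 2 they were 0.031 and 0.047. The closest pair, picked as the highest of all pairs of the 31 genes, was the alpha subunit PSMA6 and the lid deubiquitinase PSMD14 (0.72). No closest pair was sought among the other probe sets. Both genes had their lowest value of the 24 arrays on the short-day ZT2 array of set 2 (345 and 308).

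Several genes had other probe sets that differed from the one used. For PSMG4 the others included one at 0.76 ± 0.21 against -0.047, above background on 19 of 24 arrays (limma, adjusted p = 0.29). For PSME4 they were at -0.080 ± 0.17 and -0.40 ± 0.20 against 0.048, both above background on all 24 arrays. For PSMA5 one was at 0.85 ± 0.41 against 0.14, above background on 4 of 24 arrays. Of the 15 other probe sets tested 8 had the opposite sign and 0 passed the photoperiod test.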
